A study of Homo sapiens with 6 samples.

Results

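The 10 genes described here encode chromatin and cohesin proteins whose genes are recurrently mutated in bladder cancer or belong to the same complexes: KMT2A, KMT2C, KMT2D, KDM6A, EZH2, EP300, CREBBP, ARID1A, STAG2 and ASXL2. They were listed by name, with earlier results of these data known, and are 10 of the 52992 genes with a matched transcript. All 10 are among the 11909 measured genes, those with a mean of at least 50 estimated counts over the libraries. RNA came from J82, an established human bladder cancer cell line, as 2 derived lines: tet-control, and tet-ZFP36L1, in which doxycycline induces the RNA-binding protein ZFP36L1. Each line was sampled untreated (0 h) and 6 and 24 h after doxycycline (1 µg/mL) was added, which makes 6 groups of 1 library. The sources used here do not say whether a line is 1 clone or what the control construct holds. With 1 library per group there is no test between groups, no p-value is given, and each interval below is a 95% interval of counting error alone.

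KMT2A, KMT2C and KMT2D are large methyltransferases that place methyl groups on lysine 4 of histone H3 at promoters and enhancers. KDM6A works in the same complexes as KMT2C and KMT2D and removes the lysine 27 methylation of histone H3 that EZH2, the catalytic subunit of Polycomb repressive complex 2, deposits. EP300 and CREBBP are paired acetyltransferases and coactivators, ARID1A is a DNA-binding subunit of the SWI/SNF remodelling complex, STAG2 is a subunit of cohesin, the ring complex that holds DNA loops and sister chromatids, and ASXL2 is a cofactor of the deubiquitinase BAP1 on histone H2A. Urothelial tumours often lose function of KDM6A, KMT2D, ARID1A and STAG2. ZFP36L1 binds AU-rich elements, of which TATTTAT in DNA letters is the core, in 3' UTRs, and mRNAs it binds are degraded faster.

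The labels were checked first. In counts per 1000000 (CPM, scaled with TMM factors), ZFP36L1 went from 220 to 3127 and 3133 in tet-ZFP36L1 and lay at 234, 223 and 206 in tet-control, in the order 0, 6 and 24 h. Library totals were 20739025 to 21380480 estimated counts, and the TMM factor was 0.941 to 1.006 in 5 libraries and 1.115 in tet-ZFP36L1 at 24 h. That library also had the most genes with at least 10 counts, 15695 against 14515 to 14956. Of 17 urothelial or epithelial markers, 6 had a median of at least 1 CPM (KRT7, KRT8, KRT18, EPCAM, PPARG and FOXA1), and the uroplakin genes UPK2 and UPK3A and the basal keratin KRT14 were at 0 in every library. The summed level of the epithelial list was 703 to 875 CPM in tet-control and 1157 to 1631 CPM in tet-ZFP36L1. PPARG went the other way, at 16.6, 6.42 and 10.9 CPM in tet-control and 4.86, 1.14 and 2.79 CPM in tet-ZFP36L1. All 4 mesenchymal markers were present, summing to 1210 to 1653 CPM in tet-control and 3593 to 13660 CPM in tet-ZFP36L1. Marker sums for leukocytes, endothelium, fibroblasts and red cells stayed below 1 CPM in each library.

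The 3' UTRs of the 10 genes were searched for TATTTAT, on the transcript's own strand, in GENCODE 29 on GRCh38. TATTTAT contains the shorter motif ATTTA, so each match is counted under both. In the coding transcript with the most estimated counts, STAG2 and KMT2D held 3 matches each, KDM6A and ASXL2 2 each, KMT2C and ARID1A 1 each, and KMT2A, EZH2, EP300 and CREBBP none, although the second transcript of CREBBP held 2. By that choice of transcript 31.9% of 10897 genes held at least 1 match, and 29.1% by the transcript with the highest mean TPM. The sites of STAG2 and KMT2D are printed because these genes had the lowest induction differences at 24 h and 6 h, and a site of KDM6A because its difference was near 0 at 6 h. STAG2 sites 1, 2 and 3 lie in STAG2-204 at chrX:124100821-124100849, chrX:124101015-124101043 and chrX:124102439-124102467 on the plus strand. KMT2D sites 1 and 3 lie in KMT2D-201 at chr12:49020556-49020584 and chr12:49019053-49019081 on the minus strand, and KDM6A site 1 lies in KDM6A-202 at chrX:45112048-45112076 on the plus strand. Capitals mark TATTTAT. KMT2D site 1 holds 2 whole matches, and the capitals at the right end of the KDM6A window begin its second match.
STAG2 site 1: agtaaatatttTATTTATgcgctgttagt
STAG2 site 2: tgttaaggatgTATTTATtcccctaccct
STAG2 site 3: tttctgatttgTATTTATgtcttgagaca
KMT2D site 1: agggtggggggTATTTATcTATTTATaca
KMT2D site 3: tgaactgtacaTATTTATgttgcgagagg
KDM6A site 1: taaatttacacTATTTATaaatacaTATT

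The choice of transcript matters for STAG2, KMT2D, CREBBP and ASXL2. By the highest mean TPM, STAG2 is represented by STAG2-203, whose 3' UTR of 305 bases holds site 1 alone, and KMT2D by KMT2D-202, whose 202 bases hold none. KMT2D-201 held 93.1% to 93.8% of the estimated counts of its gene in each library. CREBBP-202, the most counted transcript of CREBBP, has a 3' UTR of 179 bases without a match, whereas CREBBP-201, with 36.2% to 46.3% of the counts, has one of 2664 bases with 2 matches. ASXL2-203, with a mean of 21.5% of the counts of ASXL2, held 4 matches against 2 in ASXL2-201. Among genes with a 3' UTR of similar length, 43.8% held a match at the length of STAG2-204 (2059 bases), 54.7% at that of KMT2D-201 (2805 bases) and 27.5% at that of KDM6A-202 (1187 bases). KMT2A had none in 4660 bases, a length at which 71.9% of genes held at least 1. For KMT2A-213, KMT2C-202, KDM6A-202, EP300-201 and ARID1A-201 the length in the deposited tables differs from that in GENCODE 29 (74 of 99 transcripts of the 10 genes have equal lengths), so the 3' UTR searched may not be that of the quantified transcript. A match is a description of the letters and not a measured binding site.

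The comparison the design implies asks how each gene moved with induction of ZFP36L1 beyond its movement in the control line. The change of log2(CPM + 0.5) from 0 h was taken in each line, and the value for tet-control was subtracted from that for tet-ZFP36L1. The result is called the induction difference, and a gene is counted as lower or higher when this difference is at least 1.5-fold. At 6 h, 3 of the 10 genes were lower (KMT2A, KMT2D and EP300) beside 14.3% of all measured genes, and none was higher beside 7.02%. All 10 differences were below 0, although CREBBP came above 0 with the deposited TPM and KDM6A with a pseudocount of 5, and both did when centred on transcript length. The median was -0.47 beside -0.01 over all measured genes, of which 50.5% were below 0. At 24 h, 2 genes were lower (EZH2 and STAG2) beside 17.4%, and none was higher beside 13.9%. The median at 24 h was -0.36 beside -0.02 over all measured genes, with 7 of 10 below 0 beside 51.6% of all measured genes. CREBBP and KMT2C lay close to 0 at 24 h and came below it under some settings, CREBBP with DESeq2 size factors and KMT2C with coding transcripts alone. The differences at 6 and 24 h share both 0 h libraries and are therefore not independent of each other. In RNA from whole cultures, less RNA per cell and fewer cells that express a gene cannot be told apart.

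**Figure D1:**
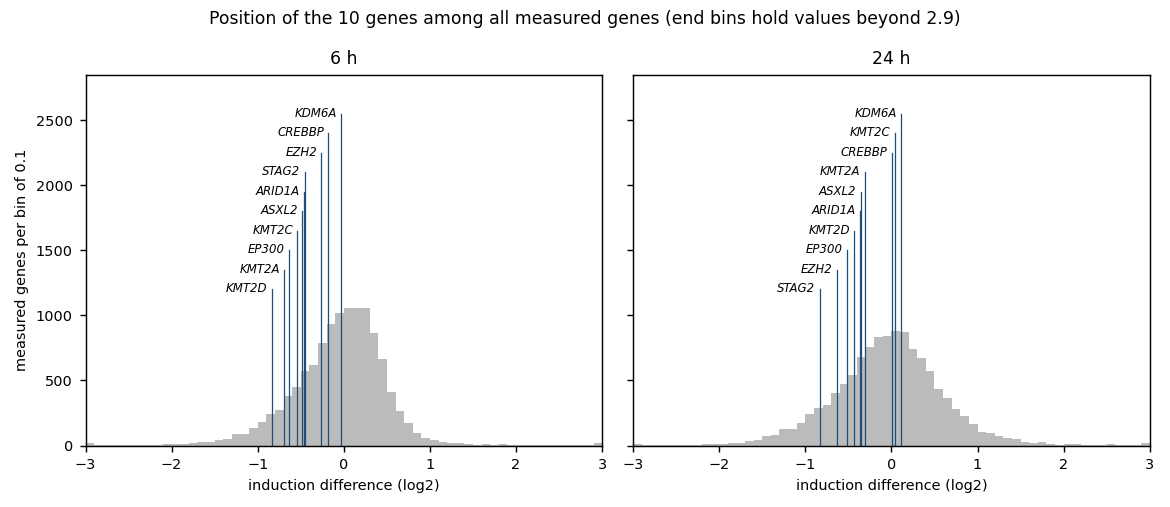
Histograms of the induction difference (log2, x axis) over the 11909 measured genes in bins of 0.1 at 6 h and 24 h, with a vertical line at the value of each of the 10 genes (line heights only separate the names). At 6 h all 10 lines stand left of 0 on this scale (CREBBP and KDM6A cross it under other settings), and at 24 h KMT2C, CREBBP and KDM6A stand right of it, the first 2 close enough to cross it under other settings.

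The own changes of the lines show where the 6 h differences arose. Of all measured genes, 50.8% were below their 0 h level in tet-control at 6 h. In that library 9 of the 10 genes were above their 0 h level and STAG2 was below it, with a median change of 0.41 beside -0.01 over all measured genes. Only KMT2D reached 1.5-fold there, at 0.71, beside 7.47% of all genes higher, and none was lower beside 7.72%. In tet-ZFP36L1 at 6 h the median was -0.03, and STAG2 alone was lower by 1.5-fold beside 15.6%, with none higher beside 9.09%. By 24 h the median change in tet-control had come to 0.14, with none of the 10 higher beside 1.60% and none lower beside 1.92%. In tet-ZFP36L1 at 24 h it was -0.24, and STAG2 was again the single gene lower by 1.5-fold beside 17.0%, with none higher beside 11.8%. For KMT2C, KMT2D, EZH2, ARID1A and ASXL2, the 6 h difference therefore consists mostly of a higher level in tet-control at 6 h. For STAG2 the larger movement was in tet-ZFP36L1.

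**Figure D2:**
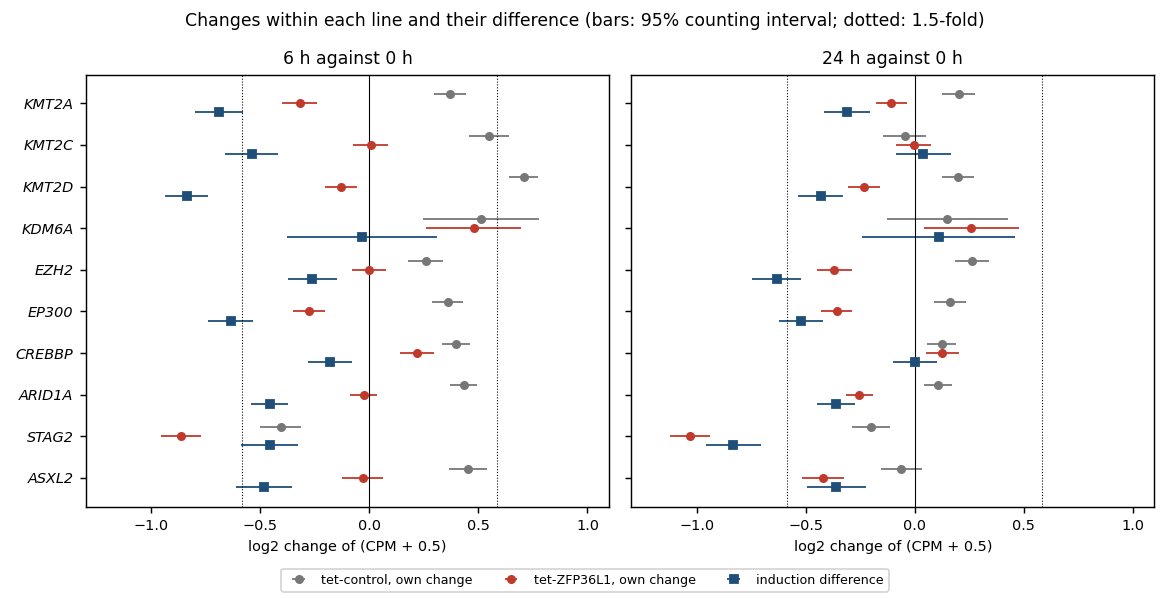
Log2 change of CPM + 0.5 from 0 h for each of the 10 genes at 6 h (left) and 24 h (right): grey circles tet-control, red circles tet-ZFP36L1, blue squares their difference, with bars for the 95% counting interval and dotted lines at 1.5-fold. At 6 h grey points lie right of 0 for all genes except STAG2, and STAG2 has the leftmost red point at both times.

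Transcript length moved with the 6 h differences and abundance with those at 24 h. The measured genes were divided into 5 equal classes by the length of their most counted transcript and into 5 by mean count. The longest class (at least 4918 bases) held 8 of the 10 genes, and the most abundant class held 7. In the longest class the median over all genes was 0.11 for the change in tet-control at 6 h and -0.19 for the 6 h difference, and 20.3% of its genes were lower at 6 h. At 24 h its median difference was -0.05, and 17.0% were lower beside 17.4% of all genes. In the most abundant class the median 24 h difference was -0.21, and 23.3% were lower, whereas at 6 h the median was 0.02 and 10.7% were lower beside 14.3%. The 520 genes in both of these classes, which include 6 of the 10, had a median of 0.19 for the change in tet-control at 6 h and -0.16 and -0.18 for the differences at 6 and 24 h. The part of length and abundance in the values of the 10 genes was not tested. With the median of its length class subtracted, KMT2A came to -0.50 and EP300 to -0.44 at 6 h, both short of 1.5-fold, and KMT2D to -0.65.

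KMT2D, with the lowest 6 h difference of the 3 H3K4 methyltransferases (ENSG00000167548; chromosome 12, 49018975 to 49059774, minus strand), stood at 142, 233 and 164 CPM in tet-control at 0, 6 and 24 h and at 160, 146 and 136 CPM in tet-ZFP36L1. The tet-control library at 6 h was the highest of the 6, and the other 5 lay between 136 and 164 CPM. The change at 6 h was 0.71 (0.64 to 0.77) in tet-control and -0.13 (-0.20 to -0.06) in tet-ZFP36L1, a difference of -0.84 (-0.94 to -0.74), the lowest of the 10 at that time. At 24 h the difference was -0.43 (-0.53 to -0.33). KMT2D-201 holds 3 TATTTAT matches, of which sites 1 and 3 are printed above, and a link between the matches and these changes was not tested.

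KMT2A (ENSG00000118058; chromosome 11, 118436464 to 118526832, plus strand), the founding member of the MLL family, stood at 128, 166 and 148 CPM in tet-control and at 146, 117 and 136 CPM in tet-ZFP36L1. The lines moved to opposite sides of their 0 h level at 6 h, to the highest value of the 6 in tet-control and to the lowest in tet-ZFP36L1. The difference was -0.69 (-0.80 to -0.58) at 6 h and -0.31 (-0.41 to -0.20) at 24 h. The deposited TPM gave -0.42 at 6 h, which is short of 1.5-fold.

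KMT2C (ENSG00000055609; chromosome 7, 152134922 to 152436005, minus strand), the partner of KMT2D in enhancer methylation, stood at 82.2, 120 and 79.6 CPM in tet-control. In tet-ZFP36L1 it stood at 121, 122 and 121 CPM, so the induced line was flat and matched the 6 h level of tet-control at every time. The difference on the CPM scale was -0.54 (-0.66 to -0.42) at 6 h, just short of 1.5-fold, and 0.04 (-0.09 to 0.17) at 24 h. Summing only transcripts annotated as protein coding gave -0.59 at 6 h, which passes 1.5-fold, and -0.16 at 24 h. The retained-intron transcript KMT2C-208 took 20.3% to 31.8% of the estimated counts of the gene, and coding transcripts took 60.7% to 70.1%. KMT2C shared 8.11% of its 31-base words with 4 other genes, most of them with the pseudogene BAGE2, the highest such share of the 10 genes.

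KDM6A (ENSG00000147050; chromosome X, 44873177 to 45112602, plus strand), the H3K27 demethylase, was the least abundant member, with 180 to 373 estimated counts per library. It stood at 8.94, 12.9 and 9.97 CPM in tet-control and at 13.8, 19.3 and 16.6 CPM in tet-ZFP36L1. In CPM all 3 tet-ZFP36L1 libraries were above all 3 of tet-control, and in both lines the 6 h library was the highest. On the deposited TPM the lines overlapped, with tet-ZFP36L1 at 0 h (6.26) below tet-control at 6 h (6.43). The share of all measured genes whose lines lay apart in this way was not taken. The line difference was 0.59 (0.34 to 0.85) before doxycycline, where KDM6A was the single member higher in tet-ZFP36L1 by 1.5-fold, beside 1193 of all 11909 measured genes, and none was lower beside 7.98%. KMT2C followed at 0.56 and CREBBP was lowest at -0.45. The induction difference was -0.03 (-0.38 to 0.31) at 6 h and 0.11 (-0.24 to 0.46) at 24 h. With these counts a difference inside those intervals was not detectable. The deposited TPM gave 0.61 at 24 h, past 1.5-fold, and no transcript of KDM6A kept a stable share of the counts: KDM6A-202 took between 0.15% and 60.7%. It shared 3.47% of its 31-base words with its relative UTY.

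EZH2 (ENSG00000106462; chromosome 7, 148807383 to 148884321, minus strand), which deposits the mark that KDM6A removes, stood at 116, 139 and 140 CPM in tet-control and at 135, 134 and 104 CPM in tet-ZFP36L1. The lowest of the 6 libraries was tet-ZFP36L1 at 24 h. The difference was -0.26 (-0.37 to -0.15) at 6 h and -0.63 (-0.74 to -0.52) at 24 h, made of 0.26 (0.19 to 0.34) in tet-control and -0.37 (-0.45 to -0.29) in tet-ZFP36L1. This count rests on the scaling: without a composition factor the 24 h difference was -0.46, with the deposited TPM -0.55, and with the median of its abundance class subtracted -0.43, all short of 1.5-fold. The most counted transcript, EZH2-208, has a 3' UTR of 121 bases without TATTTAT. EZH2 shared 1.93% of its 31-base words with the pseudogene EZH2P1.

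Set against KDM6A per length, EZH2 stood at 14.4, 11.5 and 19.2 times its summed TPM in tet-control at 0, 6 and 24 h and at 12.3, 8.24 and 7.09 times in tet-ZFP36L1. The ratio was lowest in tet-ZFP36L1 at 24 h, where EZH2 was lowest and KDM6A above its 0 h level. KMT2D stood at 2.52, 3.44 and 3.29 times the TPM of KMT2C in tet-control and at 1.89, 2.06 and 1.57 times in tet-ZFP36L1, so the 2 lines did not overlap in this ratio at any time, 0 h included.

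EP300 (ENSG00000100393; chromosome 22, 41091786 to 41180079, plus strand), the acetyltransferase p300, stood at 140, 180 and 157 CPM in tet-control and at 168, 139 and 131 CPM in tet-ZFP36L1. The order of the lines was reversed after induction, with tet-ZFP36L1 above tet-control at 0 h and below it at both later times. The difference was -0.64 (-0.74 to -0.54) at 6 h and -0.52 (-0.62 to -0.42) at 24 h. The gene has 1 annotated transcript in these tables, with a 3' UTR of 1123 bases and no TATTTAT.

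CREBBP (ENSG00000005339; chromosome 16, 3725054 to 3880726, minus strand), the close relative of EP300, stood at 170, 223 and 185 CPM in tet-control and at 124, 144 and 135 CPM in tet-ZFP36L1. In CPM every tet-ZFP36L1 library was below every tet-control library, 0 h included, and both lines were highest at 6 h. As for KDM6A, the share of all measured genes whose lines lay apart in this way was not taken. On the deposited TPM the lines overlapped, at 35.3, 50.3 and 32.7 in tet-control and 24.2, 36.0 and 33.9 in tet-ZFP36L1, with tet-ZFP36L1 the higher at 24 h. The induction difference was -0.18 (-0.28 to -0.08) at 6 h and 0.00 (-0.10 to 0.10) at 24 h. The deposited TPM gave 0.06 at 6 h, with the sign turned, and 0.59 at 24 h, past 1.5-fold. Per length, CREBBP stood at 1.93, 2.22 and 1.64 times EP300 in tet-control and at 1.04, 1.95 and 1.77 times in tet-ZFP36L1. Between the lines at 6 h, KMT2D (-0.68) and CREBBP (-0.63) were lower in tet-ZFP36L1 by 1.5-fold beside 15.3% of all genes, and none was higher beside 12.4%. Between the lines at 24 h, KMT2C (0.60) and KDM6A (0.70) were higher beside 18.4%, and none was lower beside 20.3%.

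ARID1A (ENSG00000117713; chromosome 1, 26693236 to 26782110, plus strand), the SWI/SNF subunit, stood at 193, 261 and 208 CPM in tet-control and at 223, 218 and 187 CPM in tet-ZFP36L1. Only the tet-control library at 6 h stood apart upward. The difference was -0.46 (-0.54 to -0.37) at 6 h and -0.36 (-0.45 to -0.27) at 24 h, both short of 1.5-fold. It shared 3.46% of its 31-base words, nearly all with an antisense gene that had 2 to 8 counts per library, and the sources used here do not say whether the counting used strand.

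STAG2 (ENSG00000101972; chromosome X, 123960212 to 124422664, plus strand), the cohesin subunit, stood at 111, 83.4 and 96.5 CPM in tet-control and at 134, 73.7 and 65.6 CPM in tet-ZFP36L1. Tet-ZFP36L1 started highest of the 6 and ended with the lowest values at 6 and 24 h. Its change was -0.86 (-0.96 to -0.77) at 6 h and -1.03 (-1.12 to -0.94) at 24 h, against -0.41 (-0.50 to -0.31) and -0.20 (-0.29 to -0.11) in tet-control. The induction difference was -0.46 (-0.59 to -0.33) at 6 h and -0.83 (-0.96 to -0.70) at 24 h, the lowest of the 10 at the later time, and it stayed past 1.5-fold at 24 h under every scaling, filter and centring tried. It ended between -0.66 and -0.87 over those alternatives, and 2-fold was not reached.

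The 3 TATTTAT sites of STAG2 printed above lie in the long form of its 3' UTR. Transcripts with a 3' UTR over 1000 bases held 56.0%, 47.7% and 70.4% of the assigned estimated counts in tet-control and 63.3%, 71.5% and 65.4% in tet-ZFP36L1. In tet-ZFP36L1 the long forms held 1715, 999.5 and 924 counts and the short forms 993, 398 and 489, so both classes were lower at 6 and 24 h than at 0 h. In tet-control the long forms held 1236, 716 and 1321 counts and the short forms 970, 784 and 555.5. Both classes were thus below their 0 h count at 6 h in the control line too, and at 24 h the short forms were still below it there while the long forms were not. Site 1 is present in the short form STAG2-203 as well. Kallisto divides reads among transcripts that share most of their sequence, and the error of that division is not in these values.

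ASXL2 (ENSG00000143970; chromosome 2, 25733753 to 25878516, minus strand), the BAP1 cofactor, stood at 89.7, 123 and 86.0 CPM in tet-control and at 94.0, 91.9 and 70.2 CPM in tet-ZFP36L1. The tet-control library at 6 h was highest and the tet-ZFP36L1 library at 24 h lowest. The difference was -0.48 (-0.61 to -0.36) at 6 h and -0.36 (-0.49 to -0.22) at 24 h. With the deposited TPM the 6 h value was -1.09, past 1.5-fold, since the TPM in tet-control at 6 h was 26.1 against 12.9 to 15.1 in the other libraries. It shared no 31-base word with another gene.

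**Figure D3:**
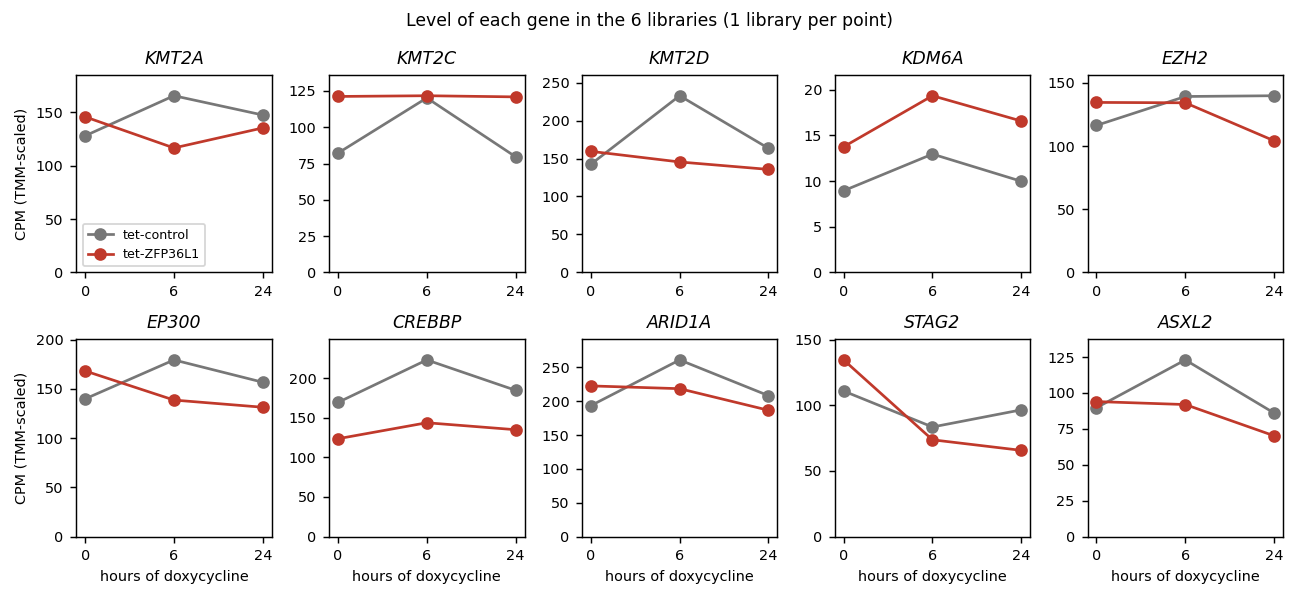
Level of each of the 10 genes (y axis, TMM-scaled CPM, starting at 0) against hours of doxycycline, with grey for tet-control and red for tet-ZFP36L1 and 1 library per point. Grey lines peak at 6 h in all genes except EZH2 and STAG2, and STAG2 has its 2 lowest points in red at 6 and 24 h. KDM6A and CREBBP have their lines apart at each time on this scale, whereas in TPM the ranges of their 2 lines overlap.

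Between genes, levels can be compared per length as TPM. The order by the median over the 6 libraries was KDM6A (6.35), KMT2C (12.4), ASXL2 (14.2), EP300 (19.5), KMT2A (21.6), STAG2 (25.7), KMT2D (28.4), CREBBP (34.6), ARID1A (40.9) and EZH2 (72.8). EZH2, at 61.5 to 76.95 TPM, was above the range of every other member, and KDM6A, at 3.79 to 8.86 TPM, was below that of every other member. Neighbours between them overlapped over the libraries, for example STAG2 at 18.9 to 37.4 TPM and KMT2D at 25.6 to 41.0 TPM. The highest library was 1.24 times the lowest for ARID1A and 2.34 times for KDM6A.

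The transcripts that carry these sums differed in how stable they were. KMT2A, KMT2D, EP300, ARID1A and ASXL2 were each dominated by 1 transcript, with KMT2A-213 at 92.8% to 95.05% of its gene. ARID1A-201 held less, at 67.9% to 77.1%, as did ASXL2-201, at 68.75% to 77.1%. CREBBP was split between CREBBP-202, at 51.7% to 59.4%, and CREBBP-201, at 36.2% to 46.3%. In EZH2, EZH2-208 took 49.5% to 61.2%. STAG2-204 ranged from 17.96% in tet-control at 0 h to 51.8% in tet-ZFP36L1 at 6 h. KMT2A also overlaps another coding gene on the same strand, AP001267.5, over 17.9% of its exonic bases, and counts of that gene were not analysed here.

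**Figure D4:**
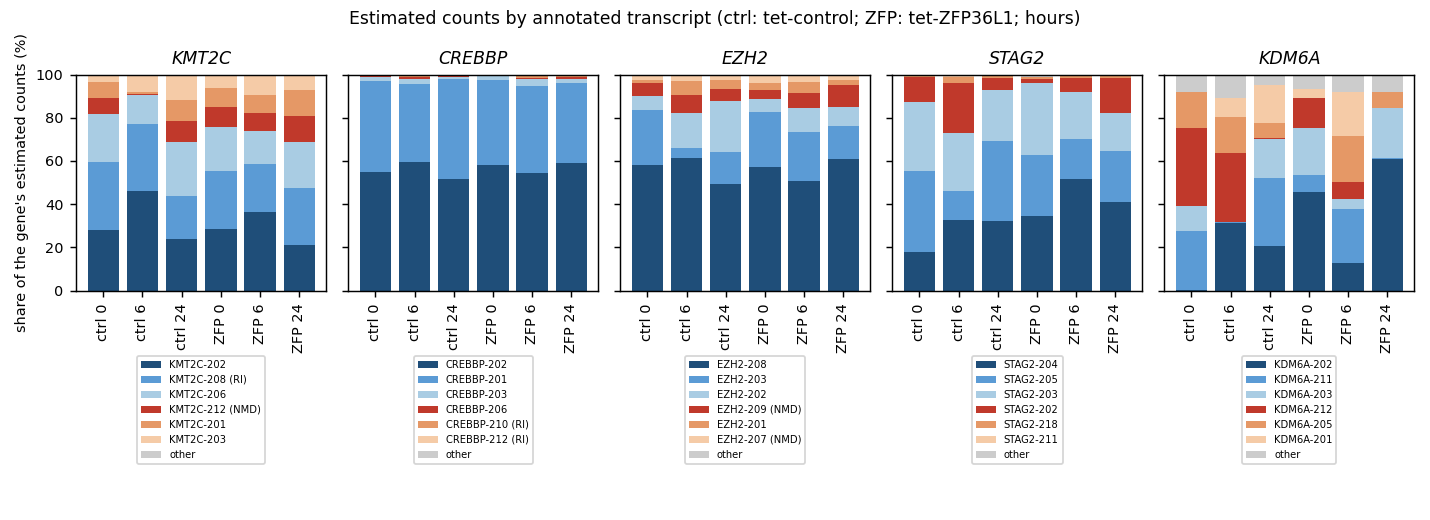
Share of the gene's estimated counts (y axis, percent) by annotated transcript in each library (bars; ctrl tet-control, ZFP tet-ZFP36L1, with hours) for 5 of the genes, where RI marks retained-intron and NMD nonsense-mediated-decay transcripts. CREBBP keeps nearly the same 2 shares in each library. KDM6A, the gene with the fewest counts, is led by KDM6A-212, KDM6A-211 or KDM6A-202, depending on the library.

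Partner genes were read from 8 lists of 137 genes, of which 134 were measured. At 6 h, 19 of the 134 were lower (14.2% beside 14.3% of all genes) and 4 higher (2.99% beside 7.02%). At 24 h, 19 were lower (14.2% beside 17.4%) and 12 higher (8.96% beside 13.9%). The share lower among the partners was thus near or under the background at both times. Genes named below to complete a count, and the paralog STAG1, fall outside the naming rule and were chosen after their values were seen. ASXL1, BAP1 and KDM6B, named as relatives or partners of members, also fall outside that rule.

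Of 14 measured cohesin genes, 3 were lower (1 with plain CPM) and none higher (2 with the deposited TPM) at 24 h, and the median difference was -0.44. Of all measured genes, 17.4% were lower and 13.9% higher at 24 h. In the most abundant class 23.3% were lower, with a median of -0.21, and the part of abundance in the cohesin values was not tested. The cohesin median was the lowest of the 8 lists, and below 0, under each of the 4 scalings, from -0.18 with the deposited TPM to -0.45 with DESeq2 size factors. SMC3, one of the ring ATPases, stood at 175, 166 and 183 CPM in tet-control and at 182, 110 and 101 CPM in tet-ZFP36L1, with differences of -0.65 (-0.75 to -0.54) and -0.91 (-1.02 to -0.81). The 2 tet-ZFP36L1 libraries after induction lay below the other 4. RAD21, which closes the ring, stood at 332, 302 and 336 CPM in tet-control and at 334, 265 and 220 CPM in tet-ZFP36L1, a difference of -0.20 at 6 h and -0.62 at 24 h. SMC1A, the other ATPase, was at -0.59 at 24 h, and MAU2, part of the cohesin loader, at -0.47 at 6 h.

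STAG1, the paralog that takes the place of STAG2 in a cohesin ring, stood at 55.4, 62.9 and 63.2 CPM in tet-control and at 71.2, 83.2 and 60.2 CPM in tet-ZFP36L1. Its difference was 0.04 (-0.11 to 0.20) at 6 h and -0.43 (-0.59 to -0.27) at 24 h. Per length, STAG2 stood at 2.49, 1.86 and 1.964 times STAG1 in tet-control and at 2.34, 1.04 and 1.19 times in tet-ZFP36L1. The 2 genes were thus close to equal per length in the induced libraries. Between the lines at 6 h, STAG1 was at 0.40 and STAG2 at -0.18, and at 24 h they were at -0.07 and -0.55.

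In the Polycomb repressive complex 2 list, 2 of 11 measured genes were lower at 6 h (PHF1 at -0.77 and LCOR at -0.81) and 2 at 24 h (SUZ12 at -0.73 and PHF19 at -0.70), and EZH1 was higher at 24 h. With plain CPM and with the deposited TPM none was lower at 24 h. SUZ12, the core scaffold, stood at 143, 138 and 135 CPM in tet-control and at 132, 104 and 75.1 CPM in tet-ZFP36L1. EZH1, the paralog of EZH2, stood at 14.7, 29.2 and 18.8 CPM in tet-control and at 16.1, 44.2 and 35.7 CPM in tet-ZFP36L1, and so was higher at 6 h in both lines. Its difference was 0.47 (0.20 to 0.74) at 6 h and 0.79 (0.51 to 1.07) at 24 h. Per length, EZH2 stood at 5.35, 5.18 and 7.33 times EZH1 in tet-control and at 5.32, 2.93 and 2.72 times in tet-ZFP36L1. By counts not divided by length, the ratio was 7.89, 4.77 and 7.45 in tet-control and 8.385, 3.04 and 2.92 in tet-ZFP36L1. On counts it was thus lower at 6 h than at 0 h in both lines. The list's median was -0.17 at 24 h and turned to 0.18 with the deposited TPM.

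Of 26 SWI/SNF subunits, 6 were lower and 1 higher at 6 h, and 4 lower and 2 higher at 24 h. PBRM1, the polybromo subunit, stood at 102, 144 and 118 CPM in tet-control and at 116, 83.9 and 63.0 CPM in tet-ZFP36L1, with differences of -0.97 (-1.09 to -0.84) and -1.09 (-1.22 to -0.96). These were larger than those of ARID1A at both times. PHF10, a subunit of the same PBAF form, was at -0.94 and -0.69. SMARCD3, a variant subunit with few counts in tet-control, was at -0.80 and 1.33. The medians were -0.20 at 6 h and 0.01 at 24 h.

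Of 18 MLL/COMPASS partners, none was counted at 6 h and 2 were lower at 24 h. ASH2L, a core subunit shared by all KMT2 complexes, was at -0.95 (-1.19 to -0.72) and DPY30, its binding partner, at -0.83 (-1.05 to -0.60). DPY30 was at -0.54 and PAXIP1, a subunit of the KMT2C and KMT2D complexes, at -0.50 at 6 h. The list's median was -0.11 at 6 h and -0.05 at 24 h, and the latter turned to 0.11 without a composition factor.

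Among 15 other acetyltransferases, 3 were lower at 6 h (KAT2B, KAT6A and KAT6B), 2 at 24 h (KAT2B and KAT6B), and none was higher at either time. With plain CPM and with the deposited TPM, 1 was lower and 1 higher at 24 h. KAT2B, the coactivator PCAF, was at -0.91 and -0.86 and KAT6B at -0.86 and -0.75. EP300 and CREBBP themselves were at -0.52 and 0.00 at 24 h.

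Of 8 measured PR-DUB genes, the deubiquitinase complex that ASXL2 serves, only KDM1B was counted, at -1.22 (-1.46 to -0.97) at 6 h and -0.01 at 24 h, although 2 genes were higher at 24 h with plain CPM and 2 with the deposited TPM. ASXL1, the paralog of ASXL2, was at -0.29 and -0.21, and BAP1, the enzyme itself, at 0.41 and 0.36. OGT, the O-GlcNAc transferase that binds the complex, was at 0.52 at 24 h, and MBD6 was at -0.58 at 6 h and -0.45 at 24 h.

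Histone demethylases held the 2 largest movements of the partner lists. KDM4A, an H3K9 and H3K36 demethylase, stood at 75.8, 83.8 and 76.8 CPM in tet-control and at 86.3, 1208 and 919 CPM in tet-ZFP36L1, with differences of 3.66 (3.53 to 3.78) and 3.39 (3.26 to 3.51). KDM3B, an H3K9 demethylase, had differences of 2.69 and 2.52. In the list of 20, 3 were lower and 3 higher at 6 h, and 2 lower and 4 higher at 24 h, with medians of 0.03 and 0.02. KDM6B, the paralog of KDM6A, was at -0.69 (-0.96 to -0.42) at 6 h and 0.03 at 24 h.

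Of 22 histone deacetylases and corepressors, 3 were lower at 6 h and 4 at 24 h, and none and 5 were higher. HDAC1 was at -0.97 (-1.07 to -0.87) and -1.07 (-1.17 to -0.98), and HDAC2, its partner in the same complexes, at -0.71 and -0.98. HDAC9 was at -0.18 at 6 h and 1.44 at 24 h. The list's median at 24 h was 0.01 and changed sign with DESeq2 size factors.

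**Figure D5:**
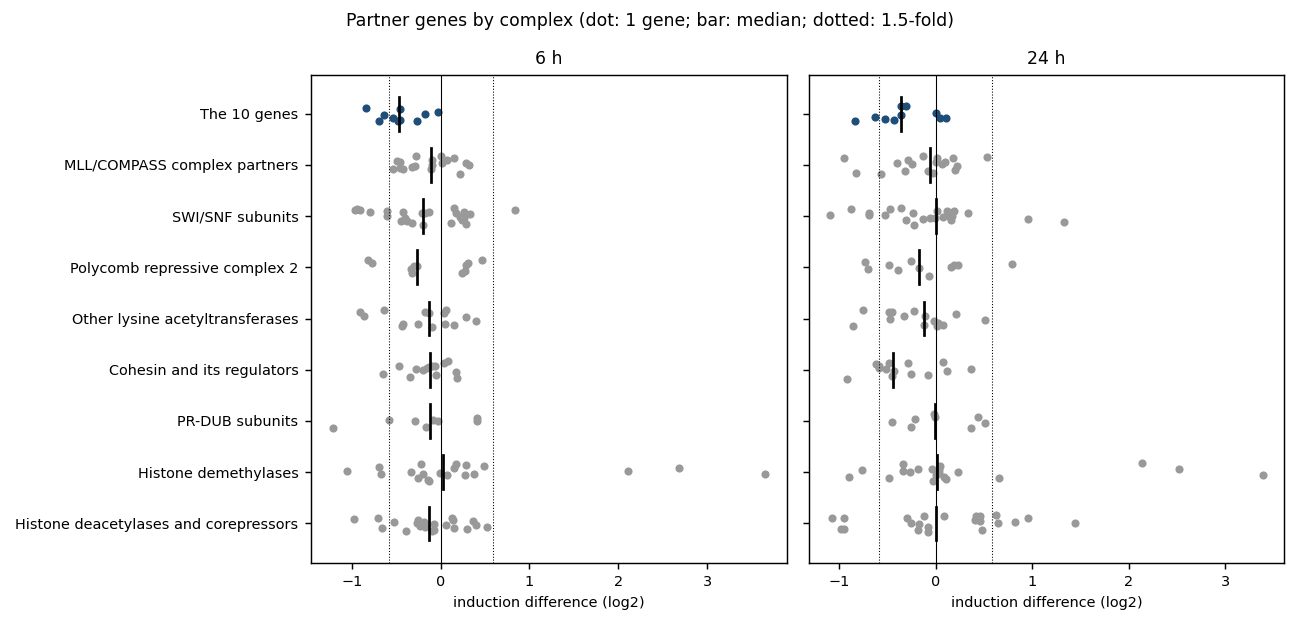
Induction difference (log2, x axis) at 6 h and 24 h for the 10 genes (blue) and the 8 partner lists (grey), with 1 dot per gene, a black bar at the median and dotted lines at 1.5-fold. The 10 genes have a median of -0.47 at 6 h, cohesin has -0.44 at 24 h, and KDM4A and KDM3B lie far to the right among the histone demethylases.

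The genes whose profile over the 6 libraries was nearest to the mean profile of the 10 were SYVN1, an ER ubiquitin ligase, BRWD1, a bromodomain protein, GSK3B, a kinase, SNRK, a kinase, and KATNBL1, related to the microtubule-severing protein katanin. Pearson's r was 0.95 to 0.97 over 6 libraries, among 11070 candidate genes searched for the smallest distance. For single members, the nearest was MATN3 for STAG2 (r of 0.97), TRNAU1AP for EZH2 (0.99), CAD for CREBBP (0.99), MICAL3 for ASXL2 (0.99), KATNBL1 for ARID1A (0.98), ZFP82 for KMT2A (0.97), PPP3CB for KMT2C (0.97), PRRC2C for KMT2D (0.96), ANXA2 for KDM6A (0.98) and ACBD3 for EP300 (0.97). With 6 points and that many candidates, these are the closest profiles and nothing more.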

How the data were processed

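Total RNA of 6 J82 cultures was sequenced on a BGISEQ-500, per the labels' protocols. Tools named in the submitters' processing notes are kallisto and DESeq2, on hg19, with no version. The deposited tables give estimated counts, which need not be whole, and TPM, scaled for effective length and depth, for 196354 transcripts in each library. Of these, 181857 matched GENCODE 29 on GRCh38 by identifier, and unmatched transcripts held 5.12% to 5.47% of the counts. Positions are those of GRCh38, without conversion between builds.

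The counts of each gene were summed over all transcripts and rounded to whole numbers. TMM factors (edgeR 4.0.16, R 4.3.3) were estimated on genes averaging at least 10 counts. The scale is log2(CPM + 0.5), on which a change of a low gene is understated. Intervals are 95% intervals by the delta method. They cover counting error only, since reads lack molecular identifiers and may repeat a molecule. With 1 library per group no count test was run, and a model of line plus time, which takes both lines to respond alike, was not fitted. Genes counted as lower or higher passed 1.5-fold, beside the share of all measured genes that did. The calculation was tested on simulated data. Nearness between profiles is the Euclidean distance of centred log2 CPM, among protein-coding genes.

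The members and lists were chosen with earlier results of these data known. The genes named by rule are the members, the 2 of each partner list with the largest difference at 6 h and the 2 at 24 h, the nearest profiles, and ZFP36L1. Exceptions among the partner genes are stated with the lists. Alternatives were plain CPM, the deposited TPM, size factors from DESeq2 1.42.0, other pseudocounts and count minimums, a 2-fold threshold and coding transcripts alone. Added after seeing the data were scaling from 5 libraries, centring on the abundance or length class, the transcript used for the UTR search, and transcripts of 2 demethylases. Python 3.11.15, numpy 2.4.6, pandas 2.3.3 and matplotlib 3.10.9 were used.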

Additional observations from a re-analysis of the deposited data

Results flagged for a closer look

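In KMT2A, KMT2D, EZH2, EP300 and ARID1A the lines moved to opposite sides of their 0 h level at 6 h, 24 h or both. Each of these genes went upward in tet-control and downward in tet-ZFP36L1, with both counting intervals away from 0. At 6 h these were KMT2D, with 0.71 and -0.13 and a difference of -0.84, KMT2A, with 0.37 and -0.32 and a difference of -0.69, and EP300, with 0.36 and -0.28 and a difference of -0.64. At 24 h they were EZH2, with 0.26 and -0.37 and a difference of -0.63, EP300, with 0.16 and -0.36 and a difference of -0.52, KMT2D, with 0.20 and -0.23 and a difference of -0.43, ARID1A, with 0.11 and -0.25 and a difference of -0.36, and KMT2A, with 0.20 and -0.11 and a difference of -0.31. KMT2A, KMT2D and EP300 did so at both times, which share their 0 h libraries. The share of all measured genes that moved in this way was not taken, so the number of members that did is not a result about them. Each group had 1 library, so the difference between the lines was not tested.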

How the results depend on the processing

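Each group had 1 library, so no replicate could be left out or used as a block. Pairing the lines by time, in a model of line plus time, could have been fitted and was not, because it takes the difference described here as its error. The count of 3 members lower at 6 h came to 0 with a 2-fold threshold and to 1 (KMT2D) when centred on transcript length. The count of 2 lower at 24 h came to 1 (STAG2) with plain CPM, with the deposited TPM and when centred on abundance, and to 0 at 2-fold. The count of 0 higher at 24 h came to 2 (KDM6A and CREBBP) with the deposited TPM. The other alternatives for these 4 counts stayed within 1.5 times, although the deposited TPM gave 4 lower at 6 h with KMT2A replaced by STAG2 and ASXL2. No called difference of a single member changed sign. Differences of the 10 genes moved beyond their counting interval in 11 of 20 cases with the deposited TPM, 9 with plain CPM, 8 when centred on length, 7 when centred on abundance and 1 with coding transcripts, and in none with DESeq2 size factors, other pseudocounts or no filter. Near 0 the sign was not stable: CREBBP at 6 h was 0.06 with the deposited TPM, KDM6A at 6 h was 0.01 with a pseudocount of 5, CREBBP at 24 h was -0.01 with DESeq2 size factors, and KMT2C at 24 h was -0.16 with coding transcripts. The split of all measured genes at 24 h was 2073 lower and 1656 higher with TMM, 1437 and 2469 with plain CPM, where the median of all genes rose to 0.15, and 1594 and 2255 with the deposited TPM. Counts in the partner lists at 24 h moved with plain CPM from 3 to 1 lower in cohesin, 4 to 2 lower in SWI/SNF, 2 to 0 lower in Polycomb repressive complex 2, 2 to 1 lower and 0 to 1 higher in the acetyltransferases, 0 to 1 higher in MLL/COMPASS, 0 to 2 higher in PR-DUB and 5 to 9 higher in the deacetylases. With the deposited TPM they moved at 24 h from 2 to 4 higher in SWI/SNF, 0 to 2 higher in cohesin and in PR-DUB, 0 to 1 higher in MLL/COMPASS, 2 to 0 lower in Polycomb repressive complex 2, and 2 to 1 lower and 0 to 1 higher in the acetyltransferases, and at 6 h from 1 to 2 lower in cohesin and 0 to 1 lower in MLL/COMPASS. The cause of these movements was not tested. Depth limits KDM6A most, with intervals of about 0.3 on the log2 scale to either side.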

Other observations

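The 2 demethylase genes with the largest movements differed in which transcripts carried them. KDM4A-201, the full-length coding transcript of KDM4A, held 1488, 1523 and 1484 estimated counts in tet-control at 0, 6 and 24 h and 1493, 23268 and 20043 in tet-ZFP36L1, and KDM4A-202 held 18.7 to 239.7 over the libraries. For KDM3B, the coding transcript KDM3B-201 held 1126, 5913 and 7176.5 counts in tet-ZFP36L1. KDM3B-207, annotated as subject to nonsense-mediated decay, held 561, 2889 and 1106.5, so its 24 h level was well below its 6 h level while that of KDM3B-201 was not. KDM3B-204, with the same annotation, held 186, 1376 and 1598 and did not fall from 6 to 24 h, and the coding transcript KDM3B-209, of the same length, was given the same counts. In tet-control KDM3B-201 lay between 1099 and 1357 counts and KDM3B-207 between 356 and 431.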
